A study of Mus musculus with 2 samples.

Results

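The genes examined were the heavy-chain variable (V) segments of the mouse immunoglobulin heavy-chain locus, taken as all listed genes whose symbol starts with Ighv and a digit. There were 114 such segments among 19960 listed genes, in 15 families, of which *Ighv1* was the largest with 58 members. GENCODE M21 places all 114 on chromosome 12 of GRCm38 (mm10), between 113572927 and 116000461, and classes 98 as V genes and 16 as pseudogenes. They were followed in cells of the omentum, an apron of abdominal fat dotted with lymphoid clusters, in mice, profiled by droplet single-cell RNA sequencing in 2 libraries. One library came from wild-type (WT) mice and the other from *Postn*-DTR mice (DTR below), which carry 1 allele of *Postn* with the diphtheria toxin receptor inserted in its first coding exon, so that the *Postn* promoter sets which stromal cells are sensitive to the toxin. Both genotypes received diphtheria toxin (DT), and cells were collected 5 days later from 3 pooled mice per group, with the age of the mice not given in the sources used here. With 1 library per group there is no replicate, so no p-value was computed. Every interval below is a 95% interval for counting error only (exact Clopper-Pearson for shares, Katz for ratios of shares), and for a count of 0 the upper limit given is instead 3 counts of the total, which is below the Clopper-Pearson bound. Cells that descend from the same B cell are not independent.

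A heavy chain is encoded by a V segment that a developing B cell joins to a D and a J segment, and the joined exon is spliced to a constant region that sets the isotype. Because of allelic exclusion a B cell normally transcribes a single productive heavy-chain V segment, and its descendants keep that segment when they divide, switch isotype or become antibody-secreting cells. B1 cells, the B cells that prevail in the peritoneal cavity, are known for natural IgM antibodies built from a restricted set of V segments, among them *Ighv11-2* and *Ighv12-3*, which are linked with recognition of phosphatidylcholine.

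A UMI (unique molecular identifier) is the tag that marks 1 captured transcript. It can be given to a segment only where the transcript differs from those of related segments. The V exons of the segments with most antibody-secreting cells are shown for this reason. Their annotated transcripts, 351 to 461 bases long, also hold bases before the V exon, which are not shown or compared here. Each line holds the 3′ end of the exon on the minus strand of GRCm38, in the coding direction, with the bases that differ from the most similar other segment of the 114 in capitals. *Ighv11-2* (chr12:114048241-114048540) was 98.7% identical to *Ighv11-1*, with 4 capitals in the 300 bases shown, whereas *Ighv1-11* (chr12:114612243-114612542) was 82.0% identical to *Ighv1-84*, with 54. *Ighv12-3* (chr12:114366521-114366820) was 79.4% identical to the pseudogene *Ighv3-2*, *Ighv1-55* (chr12:115208095-115208394) 96.7% to *Ighv1-62* and *Ighv1-26* (chr12:114788372-114788671) 96.4% to *Ighv1-22*.
Ighv11-2: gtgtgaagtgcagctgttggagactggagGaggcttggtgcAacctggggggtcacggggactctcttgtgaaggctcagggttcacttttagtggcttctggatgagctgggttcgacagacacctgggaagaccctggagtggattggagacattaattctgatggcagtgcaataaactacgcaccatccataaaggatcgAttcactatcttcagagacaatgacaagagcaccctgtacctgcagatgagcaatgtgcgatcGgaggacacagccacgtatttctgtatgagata
Ighv1-11: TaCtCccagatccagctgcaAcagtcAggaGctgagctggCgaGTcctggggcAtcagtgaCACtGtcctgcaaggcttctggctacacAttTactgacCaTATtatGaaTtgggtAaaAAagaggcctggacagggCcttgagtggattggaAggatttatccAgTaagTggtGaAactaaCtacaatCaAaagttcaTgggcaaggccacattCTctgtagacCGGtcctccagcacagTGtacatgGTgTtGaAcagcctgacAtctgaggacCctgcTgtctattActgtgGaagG
Ighv12-3: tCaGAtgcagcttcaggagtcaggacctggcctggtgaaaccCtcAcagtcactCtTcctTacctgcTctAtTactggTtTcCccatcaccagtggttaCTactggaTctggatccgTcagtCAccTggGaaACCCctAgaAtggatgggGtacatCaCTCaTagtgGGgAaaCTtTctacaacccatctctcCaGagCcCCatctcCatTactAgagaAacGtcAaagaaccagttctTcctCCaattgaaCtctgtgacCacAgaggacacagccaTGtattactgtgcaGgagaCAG
Ighv1-55: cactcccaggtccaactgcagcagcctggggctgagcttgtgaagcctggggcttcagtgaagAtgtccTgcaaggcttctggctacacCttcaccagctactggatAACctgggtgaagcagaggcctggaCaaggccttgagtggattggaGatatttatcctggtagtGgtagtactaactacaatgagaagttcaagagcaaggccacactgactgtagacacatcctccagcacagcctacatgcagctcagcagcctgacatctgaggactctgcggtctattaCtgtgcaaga
Ighv1-26: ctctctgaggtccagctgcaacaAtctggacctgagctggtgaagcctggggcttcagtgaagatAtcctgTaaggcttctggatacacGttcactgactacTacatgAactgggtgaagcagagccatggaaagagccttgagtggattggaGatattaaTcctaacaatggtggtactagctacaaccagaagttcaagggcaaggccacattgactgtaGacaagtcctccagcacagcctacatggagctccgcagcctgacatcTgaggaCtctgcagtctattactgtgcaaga
Over all 114 segments the median identity to the nearest other segment was 94.1%, and 17 had a relative at 97% or more, whose reads the counting could have divided between them. *Ighv11-1* held 177 UMIs in WT and 801 in DTR antibody-secreting cells against 606775 and 2142599 of *Ighv11-2*. These counts come from the same read assignment. They therefore cannot show how many UMIs of *Ighv11-1* were given to *Ighv11-2*.

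After filtering, 8654 WT and 5727 DTR cells were kept, with 80152327 and 81011336 UMIs and medians of 5635 and 8472 UMIs per cell. The libraries shared 65 cell barcodes. Antibody-secreting cells (plasma cells below) were cells with at least 49.9 UMIs of *Jchain* per 10000 and a UMI of *Xbp1*, which gave 596 WT and 2050 DTR cells, 6.89% and 35.8% of the cells kept. The 6 other plasma cell markers examined (*Sdc1*, *Prdm1*, *Irf4*, *Mzb1*, *Tnfrsf17* and *Derl3*) were each found in 82.2% to 99.5% of WT and 60.9% to 99.9% of DTR plasma cells. A UMI of *Ms4a1*, which encodes the B cell antigen CD20, was found in 68.8% of WT and 43.8% of DTR plasma cells. B cells (*Ms4a1* present, *Jchain* below the same limit) numbered 2916 and 1039. T cells (a UMI of a *Cd3* gene, none of *Ms4a1*, *Cd79a* or *Xbp1*, *Jchain* below the limit) numbered 2304 and 382 and served as background, since T cells are not known to make heavy chains. Within 0.25 natural log units of the *Jchain* limit lay 16 WT and 94 DTR plasma cells just inside, with medians of 1168.5 and 2891 Ighv UMIs, and 12 and 68 cells just below, with medians of 2506 and 2331.5.

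Nearly every plasma cell carried a single V segment at high level. The median plasma cell held 3041.5 Ighv UMIs in WT and 3539.5 in DTR, and Ighv segments made up 11.7% and 15.5% of all plasma cell UMIs. A segment was called dominant where it had at least 3 UMIs and at least 50% of the Ighv UMIs of the cell. This held in 595 of 596 WT plasma cells (99.8%, 99.1–100) and in 2042 of 2050 DTR plasma cells (99.6%, 99.2–99.8). The median share of the dominant segment was 99.9% in WT and 99.7% in DTR. A second segment at 20% or more was present in 27 WT (4.54%) and 106 DTR (5.19%) of these cells. In DTR, 42 of the 56 such cells dominated by *Ighv1-11* had *Ighv11-2* in second place. B cells held far fewer Ighv UMIs, with medians of 10 in WT and 16 in DTR, and 85.0% and 86.8% of them had a dominant segment. In B cells the median share of the dominant segment was 96.2% in WT and 81.8% in DTR.

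T cells set the background, and it differed between the libraries. An Ighv UMI was found in 45.2% (43.1–47.2) of WT T cells and in 90.1% (86.6–92.9) of DTR T cells, at median depths of 4464 and 3905 UMIs. The mean level was 2.07 Ighv UMIs per 10000 in WT and 10.3 in DTR. A dominant segment by the rule above was called in 5.38% of WT and 42.1% of DTR T cells, and *Ighv1-11* was that segment in 90 of 124 and in 153 of 161. Thinned to 2000 UMIs per cell, which left out 105 WT and 37 DTR cells, the shares with an Ighv UMI were 25.9% and 68.7%. No T cell reached 100 UMIs of a segment (0 of 2304 and 0 of 382, which allows up to 0.130% and 0.785%), whereas 98.0% of WT and 98.6% of DTR plasma cells did. The T cell class also differed in neutrophil transcripts, with a summed level of *S100a8*, *S100a9* and *Retnlg* of 15.9 UMIs per 10000 in WT and 192 in DTR. The part that free RNA and cell doublets play in these UMIs was not tested.

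**Figure D1:**
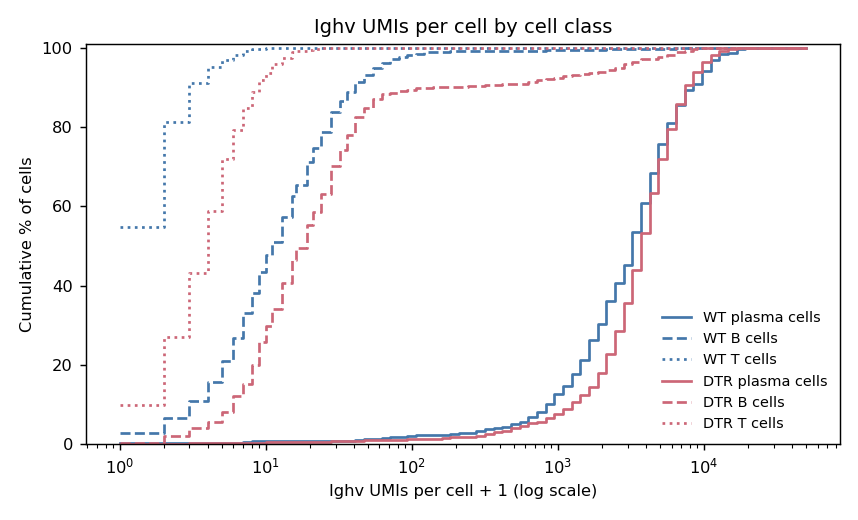
Cumulative share of cells (vertical axis, %) against the number of Ighv UMIs per cell plus 1 (horizontal axis, log scale) for plasma, B and T cells of both libraries. Medians lie at 3041.5 (WT) and 3539.5 (DTR) in plasma cells, 10 and 16 in B cells, and 0 and 3 in T cells.

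Among plasma cells with a dominant segment, *Ighv11-2* and *Ighv1-11* together accounted for 62.4% in WT and 81.9% in DTR. *Ighv11-2* was dominant in 205 of 595 WT cells (34.5%, 30.6–38.4) and 676 of 2042 DTR cells (33.1%, 31.1–35.2). The ratio of its shares, DTR over WT, was 0.961 (0.846–1.09), an interval that spans equal shares. *Ighv1-11* was dominant in 166 WT cells (27.9%, 24.3–31.7) and 996 DTR cells (48.8%, 46.6–51.0), a ratio of 1.75 (1.53–2.0). By number of cells the leading segment was thus *Ighv11-2* in WT, where the intervals overlap, and *Ighv1-11* in DTR. By UMIs *Ighv1-11* led in both libraries, with 42.3% of Ighv UMIs in WT and 59.0% in DTR plasma cells, against 27.4% and 26.3% for *Ighv11-2*. Whether the difference in *Ighv1-11* lies between genotypes or between the pooled mice cannot be told apart here. In its own plasma cells *Ighv1-11* had a median of 5011.5 UMIs in WT and 4503 in DTR, above the 2813 and 2913 of *Ighv11-2*.

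The other segments were far less used, and several had unlike shares in the 2 libraries. *Ighv1-55* was dominant in 38 WT (6.39%) and 34 DTR (1.67%) plasma cells, with a ratio of 0.261 (0.166–0.410). *Ighv12-3*, the other segment known from phosphatidylcholine-binding B1 cells, was dominant in 27 WT (4.54%) and 70 DTR (3.43%) cells, with a ratio of 0.755 (0.489–1.17) that spans 1. *Ighv3-6* had the lowest ratio among the 9 segments with at least 20 plasma cells, with 19 WT (3.19%) and 4 DTR (0.196%) cells and a ratio of 0.0613 (0.0210–0.180). *Ighv6-6* had 17 WT (2.86%) and 7 DTR (0.343%) cells and a ratio of 0.120 (0.050–0.288). *Ighv1-26* had the highest, with 4 WT (0.672%) and 64 DTR (3.13%) cells and a ratio of 4.66 (1.70–12.7). That ratio rests on 4 WT cells, and 58 of the 64 DTR cells were IgG1 cells with the light chain *Igkv9-120*. Whether these 58 cells descend from the same B cell was not tested. The shares of all these segments depend on the share of *Ighv1-11*. Among the 224 WT and 370 DTR plasma cells with neither of the leading segments, a base chosen after seeing the data, *Ighv12-3* made up 12.1% in WT and 18.9% in DTR, a ratio of 1.57 (1.04–2.37), which is the other direction from its share of all cells. On this base *Ighv1-55* had a ratio of 0.542 (0.352–0.834), *Ighv3-6* 0.127 (0.0439–0.370), *Ighv6-6* 0.249 (0.105–0.592) and *Ighv1-26* 9.69 (3.58–26.2), all on the same side of 1 as before.

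**Figure D2:**
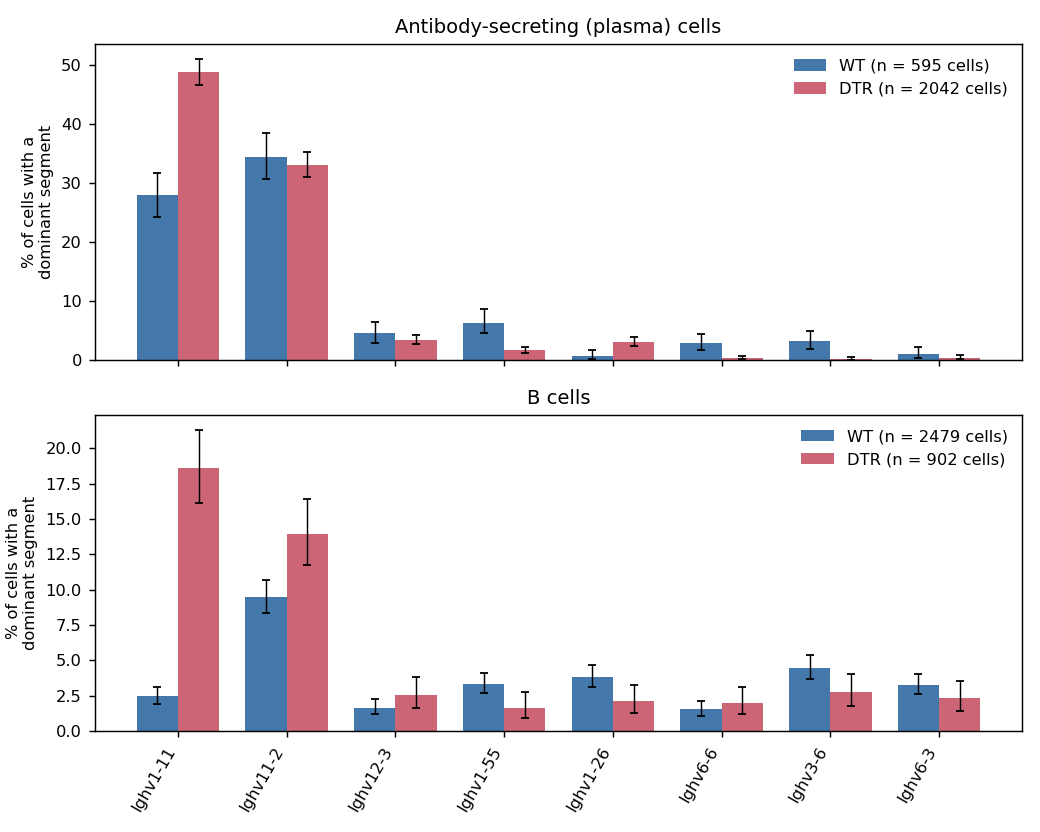
Share of cells (vertical axis, % of cells with a dominant segment) for each named segment in plasma cells (upper panel) and B cells (lower panel), WT in blue and DTR in red, with exact 95% binomial intervals for counting error. In plasma cells *Ighv1-11* stands at 27.9% in WT and 48.8% in DTR while *Ighv11-2* stands at 34.5% and 33.1%.

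All 114 segments were accounted for. In plasma cells 65 were dominant in at least 1 cell, 32 of them in both libraries, 9 in WT alone and 24 in DTR alone, where more cells were sampled. Adding B cells, 94 segments were dominant in at least 1 cell and 20 in none. Of the 16 pseudogenes 2 were ever dominant, namely *Ighv1-2* in 17 WT B cells, 1 DTR B cell and 1 DTR plasma cell, and *Ighv3-2* in 1 WT B cell. By family, *Ighv1* held 46.7% of WT and 57.5% of DTR plasma cells, against 47.6% and 47.8% of B cells, where 61 WT and 168 DTR cells of the family were *Ighv1-11* calls. *Ighv11*, through *Ighv11-2* alone, held 34.5% and 33.1% of plasma cells against 9.48% and 13.97% of B cells.

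Over all calls, plasma cells used a narrower set of segments than B cells in both libraries. The inverse Simpson number, which reads as the number of equally used segments that would give the same chance of drawing the same segment in a pair of cells, was 4.87 in WT and 2.86 in DTR plasma cells. It was 39.7 in WT and 16.1 in DTR B cells. For B cell calls at 3 to 9 UMIs it was 41.9 in WT and 15.2 in DTR, where *Ighv1-11* held 78 of 333 calls. At 10 to 99 UMIs it was 24.3 and 19.3. At 100 or more UMIs it was 3.72 and 2.60 in B cells, below the 4.81 and 2.85 of plasma cells at the same minimum, so B cells were not broader there. Without the most used pair of segments the plasma cell numbers were 14.9 in WT and 12.2 in DTR, and those of B cells were 52.0 and 54.2. At an equal 595 cells, 41 segments were found in WT and 36.8 were expected in DTR plasma cells, against 80.6 and 79.4 in B cells. The 10 most used segments covered 86.4% of WT and 93.0% of DTR plasma cells, and 37.4% and 50.6% of B cells. Apart from those by UMI range, the B cell values here include calls at 3 to 9 UMIs, the range reached by T cells.

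**Figure D3:**
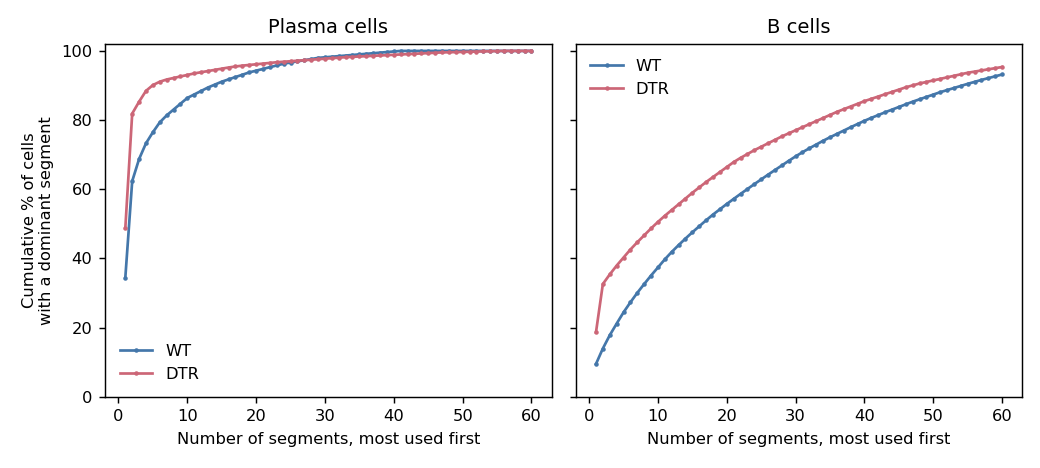
Cumulative share of cells with a dominant segment (vertical axis, %) against the number of segments, most used first (horizontal axis), in plasma cells (left) and B cells (right). In plasma cells the first 2 segments cover 62.4% in WT and 81.9% in DTR, and in B cells 13.96% and 32.6%. The B cell curves include calls at 3 to 9 UMIs, the range reached by T cells.

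The light chain, which the choice of cells did not use, was close to fixed for each leading segment. A dominant light-chain V segment, called by the same rule, was found beside the heavy chain in 579 WT and 2019 DTR plasma cells. *Igkv14-126* accompanied *Ighv11-2* in 198 of 199 WT cells (99.5%, 97.2–100) and 670 of 674 DTR cells (99.4%, 98.5–99.8). In cells with another heavy segment it was found in 8 of 380 (2.11%) and 46 of 1345 (3.42%). *Igkv8-16* accompanied *Ighv1-11* in 140 of 159 WT cells (88.1%, 82.0–92.7) and 888 of 983 DTR cells (90.3%, 88.3–92.1), and in no plasma cell with another heavy segment (0 of 420 and 0 of 1036, which allows up to 0.714% and 0.290%). *Ighv12-3* was paired with *Igkv4-91* in 25 WT (96.2%) and 55 DTR (83.3%) cells. *Ighv1-55* was paired with *Igkv12-89* in 34 WT (89.5%) and 29 DTR (85.3%) cells. The pair of *Ighv1-26* with *Igkv9-120* was found in 58 DTR cells, 92.1% of the *Ighv1-26* cells there. *Ighv6-6* with *Igkv10-94* was the pair of 13 WT cells. In all, 87 heavy and light pairs were seen in WT and 141 in DTR. The files hold no junction sequences, so a shared pair does not establish a shared clone, and the pairs of *Ighv11-2*, *Ighv1-11*, *Ighv12-3* and *Ighv1-55* above were present in both pools of mice.

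A further 43 DTR cells and 8 WT cells were read as *Ighv1-11* with *Igkv14-126*, the light chain of *Ighv11-2*. Of these, 41 and 8 also had *Ighv11-2* at 20% or more of their Ighv UMIs, and their median totals were 44462 UMIs in DTR and 55683 in WT, against 21903.5 and 30086.5 in cells with *Ighv1-11* and *Igkv8-16*. The part of cell doublets in these cells was not tested. Another 37 DTR cells, named after their values were seen, paired *Ighv1-11* with *Igkv12-98*. None of these had *Ighv11-2* at that level, and 11 of them also had *Igkv8-16* at 20% or more of their light-chain UMIs. No other heavy segment was accompanied by *Igkv12-98* (0 of 1036 cells, which allows up to 0.290%).

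Heavy-to-light UMI ratios differed between the libraries more for some pairs than for others. Each *Ighv1-11* and *Igkv8-16* cell had a median of 0.945 heavy UMIs per light UMI in WT (quartiles 0.722 and 1.22) and 1.65 in DTR (quartiles 1.45 and 1.93). For *Ighv12-3* with *Igkv4-91* the medians were 0.338 (0.262 and 0.400) and 0.531 (0.495 and 0.589). For both pairs the ranges between the quartiles did not overlap. For *Ighv1-55* with *Igkv12-89* the medians were 0.114 and 0.118, and for *Ighv11-2* with *Igkv14-126* 0.233 and 0.289. In the first pair the heavy chain had medians of 5005.5 UMIs in WT and 4436 in DTR, and the light chain 5441.5 and 2601. These ratios compare 2 libraries, and a difference in capture between them was not tested.

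The isotype, read from the constant-region gene with most UMIs, also divided by V segment. *Ighv11-2* plasma cells were IgM in 205 of 205 WT cells (which allows up to 1.46% switched) and 674 of 676 DTR cells. All 27 WT and 70 DTR cells of *Ighv12-3* were IgM, which allows up to 11.1% and 4.29% switched. *Ighv1-11* cells were IgM or IgG3 in WT, with 104 and 62 cells, so that 37.3% (30.0–45.2) were switched. In DTR they comprised 840 IgM, 147 IgG3 and 8 IgG2b cells, and 15.6% (13.4–18.0) were switched. Read the other way, *Ighv1-11* made up all 62 IgG3 plasma cells of WT and 147 of 149 in DTR. IgG1 was carried by 1 WT cell and by 60 DTR cells, of which 58 used *Ighv1-26* and all 58 had *Igkv9-120*. IgA was spread more widely, over 14 segments in 19 WT cells and 8 segments in 10 DTR cells. Among plasma cells of segments other than the leading pair, IgG3 was found in 0 of 223 WT cells, which allows up to 1.35%.

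**Figure D4:**
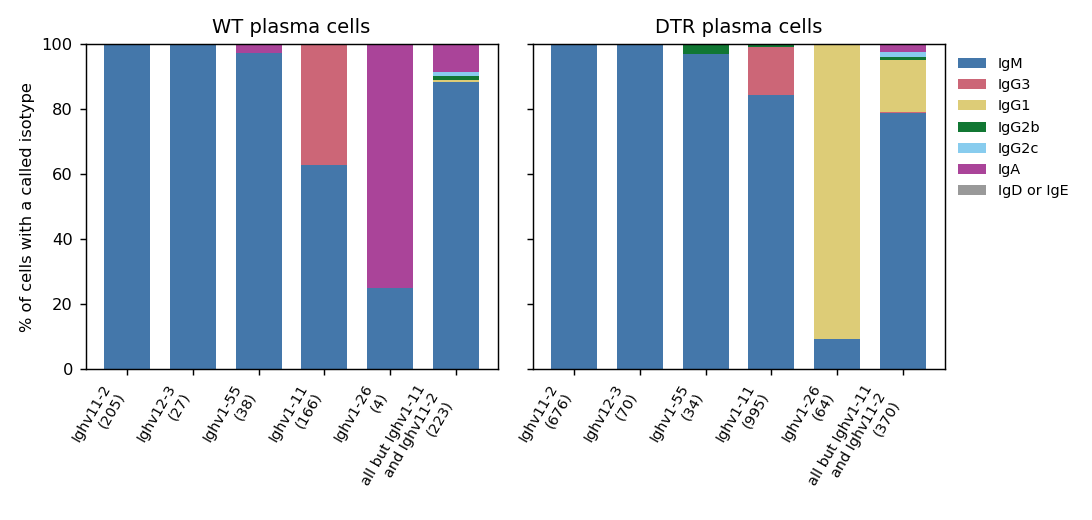
Isotype of plasma cells by dominant V segment (stacked shares, % of cells with a called isotype, WT left and DTR right), with the number of cells under each name. The *Ighv11-2* and *Ighv12-3* columns are IgM in full or nearly so, IgG3 appears in *Ighv1-11* (62 of 166 WT and 147 of 995 DTR cells), and IgG1 appears in *Ighv1-26* of DTR (58 of 64); the WT *Ighv1-26* column holds 4 cells.

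IgM and IgG3 cells of *Ighv1-11* shared their main light chain. *Igkv8-16* was found in 83.8% (75.1–90.5) of WT IgM cells and 57 of 60 WT IgG3 cells (interval 86.1–98.96%), and in 89.9% (87.6–91.8) and 93.2% (87.8–96.7) of those in DTR. The 8 IgG2b cells of DTR all had it too. IgG3 cells had more UMIs of the segment, with medians of 8187 against 4210.5 in WT and 6633 against 4149.5 in DTR. A UMI of *Mki67* or *Top2a*, which mark dividing cells, was found in 36.6% (30.0–43.6) of WT and 34.9% (31.3–38.6) of DTR *Ighv11-2* plasma cells. The shares were 44.6% (36.9–52.5) and 49.5% (46.3–52.7) in *Ighv1-11* cells, and 46.4% and 44.9% in cells of all other segments. The intervals of the 2 leading segments overlapped in WT and not in DTR, where median totals were 22479 UMIs for *Ighv1-11* and 25650 for *Ighv11-2*. Within DTR *Ighv1-11* the share was 51.7% (48.2–55.1) in IgM cells and 37.4% (29.6–45.8) in IgG3 cells. The IgG3 interval overlaps that of *Ighv11-2*. In WT the IgM and IgG3 shares were 44.2% and 45.2%. These intervals treat cells as independent, which cells that descend from the same B cell are not.

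In B cells *Ighv11-2* was dominant in 235 WT cells (9.48%, 8.35–10.7) and 126 DTR cells (13.97%, 11.8–16.4). Next in WT were *Ighv3-6* (111 cells), *Ighv1-26* (95), *Ighv1-55* (83) and *Ighv6-3* (81). In DTR, *Ighv1-11* was called in 168 B cells (18.6%, 16.1–21.3) against 61 in WT (2.46%, 1.89–3.15), but a UMI of it was present in 83.6% of DTR B cells and 83.5% of DTR T cells, and in 25.3% and 24.3% in WT, so the share of B cells with a UMI was close to that of T cells in both libraries. Of the 168 calls 78 rested on 3 to 9 UMIs, the range of 146 of the 153 *Ighv1-11* calls in DTR T cells. At 100 or more UMIs, which no T cell reached, there were 43 WT and 108 DTR B cells, 1.47% and 10.4% of the class, and 22 and 61 of them were *Ighv1-11*. Their *Jchain* level, at medians of 9.30 and 26.9 UMIs per 10000, lay below the limit for plasma cells by definition. Between 10 and 99 UMIs, *Ighv11-2* led in both libraries with 214 of 1345 and 88 of 461 cells.

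Within B cells, those of *Ighv11-2* had lower levels of B2 genes than those of other segments in both libraries, and B1 genes were higher by varying amounts. Of 7 B1 genes, 5 in WT and 2 in DTR were at least 2-fold higher in *Ighv11-2* cells, with ratios from 1.65 to 3.72 and from 1.04 to 3.75. All 5 B2 genes were at least 2-fold lower in both, with ratios from 0.0890 to 0.375 and from 0.0628 to 0.351. *Ighv11-2* B cells had a mean of 0.842 UMIs per 10000 of *Bhlhe41*, a transcription factor of B1 cells, against 0.277 in B cells of other segments in WT, and 0.632 against 0.226 in DTR. *Fcer2a*, which encodes the follicular B cell antigen CD23, had 0.274 against 3.07 in WT and 0.0629 against 1.0 in DTR. *Ighd*, the constant region of IgD, had 0.782 against 3.58 and 0.676 against 2.91. Among B cells with *Bhlhe41* or *Zbtb32* and no *Fcer2a*, *Ighv11-2* was dominant in 26.5% (23.1–30.1) in WT and 24.8% (19.5–30.7) in DTR, at median totals of 10206 and 7826 UMIs. Among those with *Fcer2a* and neither of the others it was dominant in 1.08% (0.558–1.88) and 1.79% (0.370–5.13), at 4838.5 and 3956 UMIs. *Ighv12-3* had 3.98% and 3.72% in the first gate, and in the second 0.270% in WT and 0 of 168 cells in DTR, which allows up to 1.79%. The light chain of *Ighv11-2* was the same as in plasma cells, with *Igkv14-126* in 93.7% of WT and 95.1% of DTR *Ighv11-2* B cells. Of these B cells none was switched in WT (0 of 235, up to 1.28%) or DTR (0 of 125, up to 2.40%). Over all light-chain calls, other plasma cell pairs were less frequent in B cells than in plasma cells. *Igkv8-16* was called in 54.4% of WT and 49.0% of DTR *Ighv1-11* B cells, and in 84.6% and 95.2% where the light chain had at least 100 UMIs. *Igkv4-91* was called in 37.1% and 39.1% of *Ighv12-3* B cells, and *Igkv12-89* in 34.2% of WT *Ighv1-55* B cells. Where the light chain had at least 100 UMIs, the shares were 85.7% and 62.5% for *Igkv4-91* and 67.9% for *Igkv12-89*.

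*Ighv1-26*, the segment of the DTR IgG1 plasma cells, was common among WT B cells without being so among WT plasma cells. It was dominant in 3.83% (3.11–4.66) of WT B cells, with 63 of the 1113 cells of the gate with *Fcer2a* and neither *Bhlhe41* nor *Zbtb32*, and in 2.11% (1.27–3.27) of DTR B cells. In plasma cells it was dominant in 0.672% in WT, where 3 of 4 cells were IgA, and in 3.13% in DTR. The calls rest on unlike counts. Of the 95 WT B cell calls of *Ighv1-26*, 79 rested on 3 to 9 UMIs and 16 on 10 to 99. Its WT plasma cells had a median of 3291 UMIs of it.

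The level of each segment, as the mean of UMIs per 10000 over the plasma cells of a library, was far more unequal between the libraries than that of other genes. Where a gene was required to have 100 UMIs in plasma cells of the libraries combined, 79 of the 114 segments entered, and 61 differed by at least 2-fold, 33 higher and 28 lower in DTR. A segment could reach this minimum through a single library, and plasma cells held 2217443 Ighv UMIs in WT and 8138442 in DTR. For 13 of the 79 segments a library had 0 UMIs, and their ratios are bounds set by 3 UMIs over the group. The counts and quartiles here include these bounds. Over all 9946 genes compared in the same way, 9.58% differed by at least 2-fold, 3.52% higher and 6.06% lower. The median log2 ratio of the segments was 0.47, against 0.00 over all genes, and their quartiles were −2.18 and 5.16 against −0.34 and 0.31. In B cells 32 of 82 segments differed by at least 2-fold, 20 higher and 12 lower, against 5.98% of 10144 genes, 2.61% higher and 3.37% lower. By summed UMIs, 39 of the 82 B cell segments differed by at least 2-fold, 19 higher and 20 lower, against 6.96% of 10144 genes. The wide spread went with few cells per segment: of the 61 segments past 2-fold in plasma cells, 19 drew at least 50% of their level in the higher library from a single cell. *Ighv1-11* itself had a level of 455 UMIs per 10000 in WT and 961 in DTR, a log2 ratio of 1.08, and *Ighv11-2* had 311 and 382, a log2 ratio of 0.30. *Ighv3-6* had 41.5 and 4.30 (−3.27) and *Ighv1-26* 6.95 and 29.6 (2.09). Among rare segments, picked after their values were seen, *Ighv15-2* was dominant in 3 WT plasma cells, with levels of 4.10 in WT and 0.00437 in DTR, and *Ighv5-15* in 7 DTR plasma cells, with 0 UMIs in WT and a level of 4.09 in DTR.

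**Figure D5:**
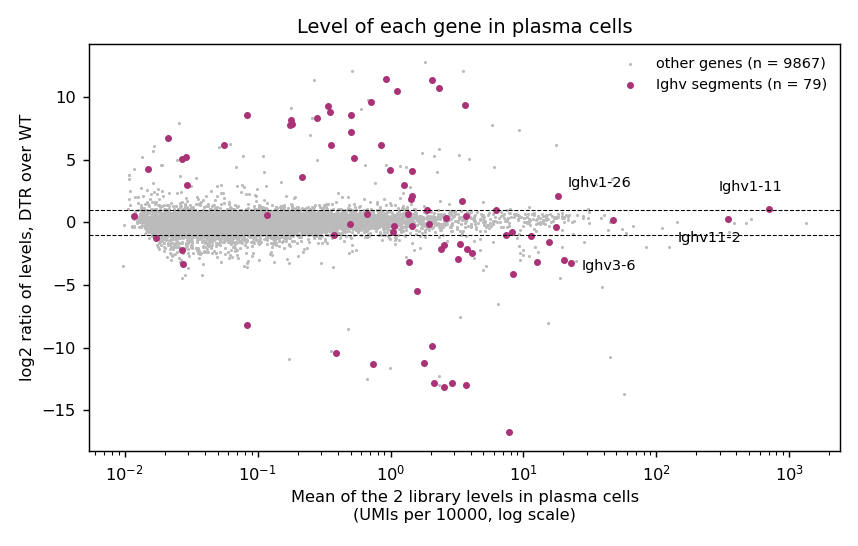
Log2 ratio of levels, DTR over WT (vertical axis), against the mean of both library levels in plasma cells (horizontal axis, UMIs per 10000, log scale), for 79 Ighv segments (purple) and all other genes compared (grey), with dashed lines at 2-fold. Genes with 0 UMIs in 1 library are drawn at the bound that 3 UMIs over the group give, and 61 of the 79 segments lie outside the dashed lines.

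The constant regions of the heavy chain and the genes of rearrangement gave the setting for these segments. *Ighm* had a plasma cell level of 478 UMIs per 10000 in WT and 465 in DTR (log2 ratio −0.04), *Ighg3* 65.9 and 44.3 (−0.57), *Ighg1* 0.543 and 11.5 (4.40) and *Igha* 15.9 and 2.87 (−2.47). The light-chain constant region *Igkc* had 395 and 376 (−0.07). *Rag1*, a subunit of the enzyme that joins V segments, and *Dntt*, which adds bases at the joins, had 0 UMIs in plasma cells of both libraries.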

How the data were processed

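Omental cells of WT and *Postn*-DTR mice were profiled in 1 droplet library each, with both groups given DT. The authors deposited natural log values, each of 1 plus a gene's UMIs after scaling every cell to 10000. The submitters' processing notes name Cell Ranger 6.0.0 and mm10, whereas the study's methods name another Cell Ranger version, and the labels name the 5′ reagent kit where the methods name the 3′ kit. Values were back-transformed and divided by the fitted value of 1 UMI in each cell, which gave UMIs whole within 0.1 for 99.96% of WT and 99.91% of DTR values. Cells were kept with 200 to 7500 genes and at most 25% mitochondrial UMIs. Of 1078 symbols given as identifiers, 1060 were filled from GENCODE M21 and V exons came from its transcripts. Recombination signals beside the exons were not analysed here. Python 3.11.15, numpy 2.4.6, scipy 1.17.1 and scanpy 1.11.5 (Scrublet) were used. The recovery of UMIs and the ratios of gene levels were tested on simulated data. Scrublet's own threshold called 2 WT and 103 DTR cells, so doublets were kept. Segments were named where they were among the 5 most used in plasma or B cells of a library, or among the 3 highest or lowest ratios of segments with at least 20 plasma cells, with *Ighv11-2* and *Ighv12-3* added as known B1 segments. The segments, cell classes and lists were chosen with earlier results of these data known. A level is the mean over cells of values on the linear scale, and no count model was used. Alternatives changed the UMI and share minimums, the *Jchain* limit, the cell filter and the weighting. The deposited expression values have no replicates, so intervals cover counting error only.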

Additional observations from a re-analysis of the deposited data

How the results depend on the processing

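No paired analysis was possible because each group has 1 library and no result comes from a test. The limits are those of 2 pooled libraries: cells of a clone share their segment, 3 mice were pooled per group, and B cell calls at 3 to 9 UMIs lie in the range reached by T cells.

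The share of plasma cells with a dominant segment was 94.97% in WT and 94.1% in DTR when the top segment had to hold 80% of Ighv UMIs, 99.9% in DTR at a minimum of 1 UMI, and 100% in WT without *Ms4a1*-positive cells, which left 186 WT and 1147 DTR cells. The ratio of the share of *Ighv1-11* was 1.39 as a share of summed Ighv UMIs and 1.52 as a share of summed UMIs per 10000. Without the most frequent pair of each library, an alternative chosen after seeing the data, it was 0.224 and that of *Ighv11-2* was 33.2, by construction, since that pair holds *Ighv11-2* in WT and *Ighv1-11* in DTR. By family the inverse Simpson number of WT plasma cells was 2.93. Of 82 B cell segments, 13 were higher and 2 lower at 4-fold, against 0.83% and 0.89% of 10144 genes. At a minimum of 500 UMIs, 15 of 40 segments were higher and 3 lower, against 1.82% and 1.14% of 6424 genes. By summed UMIs, 19 of 82 segments were higher and 20 lower, against 6.96% of 10144 genes in either direction. The cause of the change by summed UMIs was not tested. With T cells taken as *Cd3e* alone, 47.4% of WT cells had an Ighv UMI and 9.21% a dominant segment. Thinned to 2000 UMIs (chosen after seeing the data), the shares with an Ighv UMI were 25.9% in WT and 68.7% in DTR, and those with a dominant segment 1.36% and 20.6%. With the light chain at 80%, *Igkv8-16* was found in 99.2% of WT and 96.6% of DTR *Ighv1-11* cells, and *Igkv14-126* in 100% of *Ighv11-2* cells in both.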

Other observations

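Cells outside the 3 classes also carried *Ighv1-11* UMIs. Among cells with 10 or more UMIs of *S100a8* and none of *Cd79a*, as in neutrophils, an Ighv UMI was found in 53.6% (47.8–59.3) of 304 WT cells and 89.7% (87.6–91.6) of 933 DTR cells, and *Ighv1-11* was the dominant segment in 12 of 18 and 326 of 385 calls. Among cells with *C1qa* or *Csf1r*, which macrophages and monocytes express, the shares were 45.3% (41.3–49.5) of 589 and 82.8% (78.8–86.3) of 412, and *Ighv1-11* led 32 of 39 and 95 of 112 calls. T cells had 45.2% (43.1–47.2) in WT and 90.1% (86.6–92.9) in DTR. The interval of the first group in WT lay above that of T cells and the interval of the second in DTR lay below it, at median totals of 11887.5 and 5703.5 UMIs against 4464 and 3905 in T cells. Within T cells there were 1.67 UMIs of *Ighv1-11* per UMI of *Ighv11-2* in WT and 4.42 in DTR, against 1.55 and 2.24 in plasma cells.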
